A study of Mus musculus with 4 samples.

Results

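The genes described here are mouse zinc finger genes named Zfp and a number that lie in clusters. They were taken from the protein-coding genes of GENCODE vM1 on mm9 coordinates, on chromosomes 2, 7, 8, 10, 11, 13 and 17, and a gene counted as clustered when the transcription start site (TSS) of another such gene lay within 200 kb. Of 222 Zfp gene entries on these chromosomes, 152 were clustered, in 33 clusters, and 70 were not. All protein-coding genes together gave 22367 promoters. Chromatin immunoprecipitation followed by sequencing (ChIP-seq) had been done in E14TG2a.4, a mouse embryonic stem (ES) cell line that needs no feeder cells and was kept on gelatin with serum and LIF. An H3K4me3 library came from cells carrying a lentiviral PLKO.1 vector with an shRNA against Jarid1b, and the other from cells carrying a scramble shRNA; puromycin selection followed transduction. Another pair of libraries was made with an antibody named Jarid1b-DAIN, and the labels do not say whether those cells carried a vector. With 1 H3K4me3 library for each shRNA, differences between them have no replicate check, and every interval given covers counting error only.

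Most Zfp genes encode proteins with tandem C2H2 fingers, each of which can contact DNA, and in mouse they have multiplied by local duplication into clusters of close relatives. Many also carry a KRAB domain, which binds the corepressor Trim28 (KAP1) and through it the H3K9 methyltransferase Setdb1, and in ES cells this route silences retrotransposons and guards imprinted regions. H3K4me3 marks the start sites of active and poised genes, mainly where CG dinucleotides are dense, and Jarid1b (Kdm5b) is a demethylase that removes it.

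The promoters of these genes ran from CG-rich to nearly CG-free, and 6 of them are printed because they stand at the ends of the measured values. Zfp771 and Zfp768 had the highest H3K4me3 ratios of Jarid1b shRNA over scramble, Zfp759 and Zfp418 the lowest, all among promoters with at least 50 reads, Zfp668 the highest mean Jarid1b signal, and Zfp799 had no H3K4me3 read. Each is the 200 bases from 170 before to 30 after the TSS, 5′ to 3′ on the gene's strand, read from NCBIM37 (mm9), with CG dinucleotides in capitals. Zfp771 lies at chr7:134387870-134388069 (plus strand), Zfp768 at chr7:134488869-134489068 (minus), Zfp759 at chr13:67228992-67229191 (plus), Zfp418 at chr7:7123871-7124070 (plus), Zfp668 at chr7:135020313-135020512 (minus) and Zfp799 at chr17:32959116-32959315 (minus). Zfp771 held 17 CG and Zfp768 held 23, against 4 in Zfp759, 2 in Zfp418, 14 in Zfp668 and 0 in Zfp799.
Zfp771: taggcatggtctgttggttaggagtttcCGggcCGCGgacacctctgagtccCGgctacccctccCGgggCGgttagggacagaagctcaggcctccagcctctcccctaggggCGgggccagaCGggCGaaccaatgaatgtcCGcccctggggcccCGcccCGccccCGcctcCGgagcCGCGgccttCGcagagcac
Zfp768: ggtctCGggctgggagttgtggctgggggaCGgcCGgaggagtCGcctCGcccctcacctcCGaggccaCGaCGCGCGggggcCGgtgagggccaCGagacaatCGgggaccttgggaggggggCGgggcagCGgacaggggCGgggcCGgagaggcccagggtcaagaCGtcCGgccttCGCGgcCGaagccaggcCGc
Zfp759: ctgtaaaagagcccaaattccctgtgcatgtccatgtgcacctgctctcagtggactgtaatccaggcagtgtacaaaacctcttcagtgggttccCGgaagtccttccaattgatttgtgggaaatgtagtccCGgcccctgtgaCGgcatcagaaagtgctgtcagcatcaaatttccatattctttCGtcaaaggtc
Zfp418: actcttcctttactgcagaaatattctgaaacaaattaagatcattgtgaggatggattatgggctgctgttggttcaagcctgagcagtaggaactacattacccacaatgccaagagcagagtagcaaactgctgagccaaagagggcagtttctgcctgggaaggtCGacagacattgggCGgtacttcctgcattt
Zfp668: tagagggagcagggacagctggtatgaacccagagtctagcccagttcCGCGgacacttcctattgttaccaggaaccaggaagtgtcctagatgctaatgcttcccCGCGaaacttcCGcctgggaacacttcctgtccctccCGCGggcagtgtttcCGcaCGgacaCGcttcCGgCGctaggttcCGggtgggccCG
Zfp799: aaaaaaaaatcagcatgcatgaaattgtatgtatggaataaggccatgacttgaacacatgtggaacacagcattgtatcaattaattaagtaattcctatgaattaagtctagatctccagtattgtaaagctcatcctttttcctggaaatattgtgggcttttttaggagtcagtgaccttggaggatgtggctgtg

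After each position and strand was counted only 1 time, 2635705 reads remained in the Jarid1b shRNA library, 5158330 in the scramble library, and 4336767 and 1602370 in the Jarid1b libraries. The Jarid1b libraries differed by less than sampling noise over 12583 promoters (chi-square per degree of freedom 0.948) and shared 16.8% of plus-strand positions, so they were counted as 1 sample. ChIP reads cannot show how far the shRNA lowered Jarid1b. H3K4me3 stood at 6 of 8 ES cell marker promoters in the Jarid1b shRNA library and 7 of 8 in scramble, with summed levels of 207 with Jarid1b shRNA and 281 in scramble, in reads per 1000000 kept reads (RPM), and 3 of 7 compared (Nanog, Tdgf1 and Zfp42) were called lower, beside 2.37% of all promoters (a 2-fold rule given with the ratios). Klf4 (0.69, 0.35 to 1.03) had a log2 ratio above 0, and that of Sox2 was 0.23 with an interval holding 0. Pou5f1 (-0.701) and Dppa4 (-0.899) fell short of 2-fold and were not called, but both intervals lay wholly below 0. With the trend of the ratio with GC content removed, Nanog, Tdgf1 and Zfp42 were still called lower. Sox2 (-1.19) and Pou5f1 (-1.44) were then called lower too, and Klf4 (-0.72) and Dppa4 (-0.61) were not. In that setting 4.31% of all promoters were called lower. For 6 markers of early differentiated cells the sums were 31.9 RPM in the Jarid1b shRNA library and 12.99 RPM in scramble, and all 3 compared were called higher, beside 24% of all promoters. With the GC trend removed, T and Foxa2 were still called higher and Gata6 was not, beside 6.37% of all promoters. For 6 fibroblast markers the sums were 52.0 RPM with Jarid1b shRNA and 17.3 RPM in scramble. Most of this was Twist1, with 34.1 RPM with Jarid1b shRNA and 11.05 RPM in scramble. Only 2 of the 6 could be compared, and 1, Twist1, was called higher. Its log2 ratio was 1.63, or 0.21 with the trend of the ratio with GC content removed. Those not compared had at most 10 reads in either library. In such bulk libraries, fewer cells of a type and less H3K4me3 per cell cannot be told apart. The part of these shifts in the results on Zfp promoters was not tested.

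Chromosome 7 carried 73 of the 152 clustered genes in 14 clusters, chromosome 17 carried 29 in 6, chromosome 13 carried 25 in 4, and chromosomes 8, 11, 2 and 10 carried 9, 7, 6 and 3. Clusters of 2 genes numbered 16, and 11 clusters of at least 5 genes held 99 genes. Neighbouring TSSs were a median of 34.6 kb apart, and 77 of 119 neighbouring pairs (64.7%) had genes on the same strand. Just inside the distance limit were Zfp947 at 195 kb and Zfp938 at 183 kb from the next gene, with log2 ratios of -0.20 and -0.43. Just outside were Zfp414 at 234 kb and Zfp945 and Zfp40, both at 326 kb, with -0.17, -0.86 and -0.0033. In the translated coding sequences, 150 of the 152 clustered genes had at least 1 C2H2 finger, with a median of 12 against 8 in the other Zfp genes. Zfp619 had the most among the clustered, 33. A KRAB pattern was found in 102 of 152 clustered genes (67.1%) and in 22 of 70 other Zfp genes (31.4%).

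Most clustered Zfp promoters carried H3K4me3. A promoter, the 2 kb around the TSS, was called marked when its reads exceeded the higher of the genome-wide and local rates in a one-sided Poisson test with a Benjamini-Hochberg adjusted p below 0.05 over all promoters. In the Jarid1b shRNA library 120 of 152 were marked (78.9%), against 59.9% of all promoters. In scramble 122 were marked (80.3%), against 60% of all promoters. The other Zfp genes had 56 of 70 marked in each library (80%), and of the 395 protein-coding genes lying within 200 kb of the clustered ones, 187 were marked with Jarid1b shRNA (47.3%) and 188 in scramble (47.6%). Among clustered promoters marked in scramble the median was 14.2 RPM in the Jarid1b shRNA library and 19.2 RPM in scramble. Over all promoters marked in scramble it was 23.5 RPM with Jarid1b shRNA and 17.6 RPM in scramble.

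Below 55% GC, a larger share of clustered Zfp promoters than of other promoters was marked. At up to 45% GC, 19 of 43 clustered Zfp promoters were marked in scramble (44.2%), against 405 of 5020 other promoters (8.07%). From 45 to 50% GC the counts were 65 of 68 (95.6%) and 2424 of 4764 (50.9%). From 50 to 55% GC they were 25 of 28 (89.3%) and 4360 of 5833 (74.7%), and above 55% GC 13 of 13 and 6117 of 6598 (92.7%). Other Zfp promoters had 4 of 13 marked in the lowest band and 16 of 19 in the next. CG density differed between marked and unmarked members. The median ratio of observed to expected CG was 0.473 in marked and 0.173 in unmarked clustered promoters, and over all promoters 0.623 and 0.186.

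**Figure D1:**
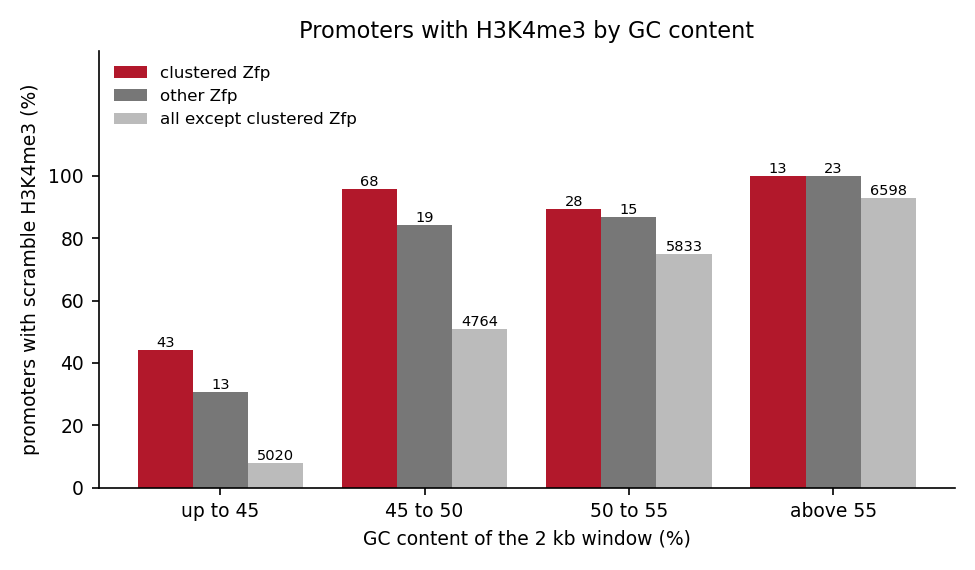
Share of promoters with H3K4me3 in the scramble library (vertical axis, %) by GC content of the 2 kb window (horizontal axis, %), for clustered Zfp, other Zfp and all promoters except clustered Zfp; numbers over bars are promoters in the band. In the band of 45 to 50% GC the share was 95.6% for clustered Zfp and 50.9% for all promoters except clustered Zfp.

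H3K4me3 lay in the same place on clustered Zfp promoters as elsewhere. Its mean was highest in the 100-base bin centred 150 bases after the TSS in both H3K4me3 libraries and in both sets of promoters, and in clustered Zfp reads after the TSS made up 73.3% in the Jarid1b shRNA library and 73.8% in scramble. The peak of the 122 promoters marked in scramble reached 3.33 RPM per bin with Jarid1b shRNA and 3.52 RPM with scramble. Over the 13306 other marked promoters it reached 3.55 RPM with Jarid1b shRNA and 2.26 RPM with scramble. Farther out, in the bin centred on 650 bases, clustered Zfp had 0.656 RPM with Jarid1b shRNA and 0.868 RPM with scramble, and the others 1.37 RPM with Jarid1b shRNA and 1.24 RPM with scramble.

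**Figure D2:**
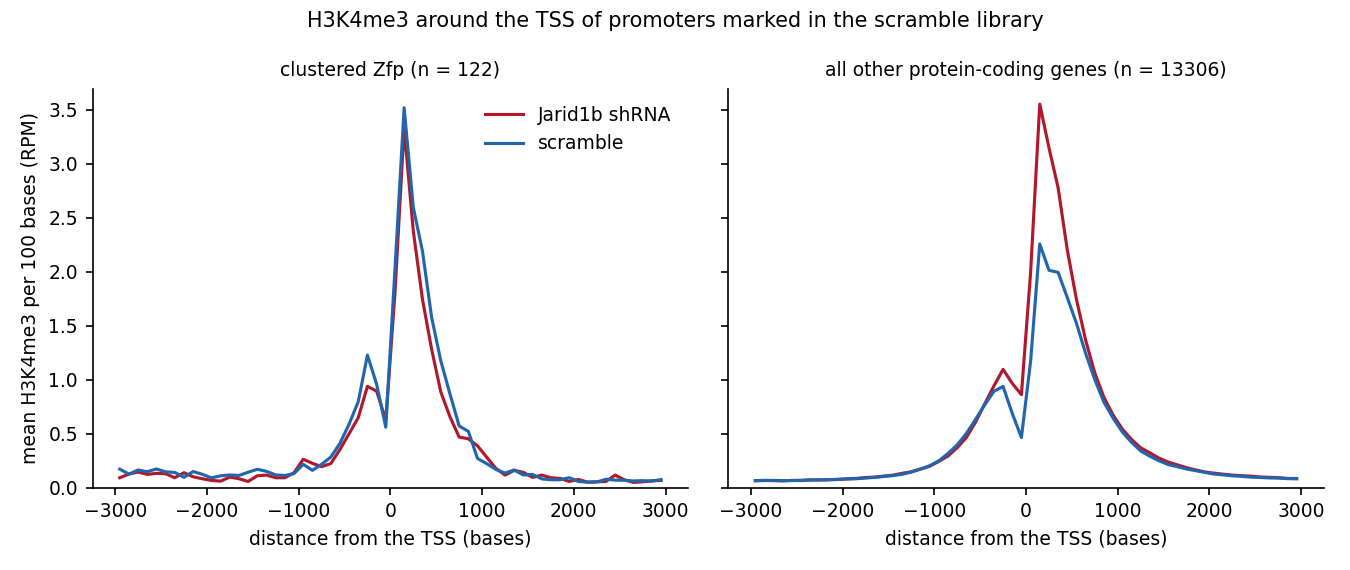
Mean H3K4me3 (vertical axis, RPM per 100 bases) by distance from the TSS (horizontal axis, bases) in promoters marked in the scramble library, for clustered Zfp (left) and all other protein-coding genes (right); lines are the Jarid1b shRNA and scramble libraries. At the bin centred on 150 bases Jarid1b shRNA stands at 3.33 RPM and scramble at 3.52 RPM on the left, and Jarid1b shRNA at 3.55 RPM and scramble at 2.26 RPM on the right.

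The 30 clustered entries with no mark in scramble had at most 15 reads there, with a median of 3. Zfp709, Zfp799 and Zfp934 had 0 scramble reads, and 0, 0 and 2 reads with Jarid1b shRNA. Zfp78 had 1 read in each. Since 3 reads is the upper limit that a count of 0 allows, a low level at these genes was not detectable at this depth and uniqueness. Of the 30, 22 had under 90% unique 26-base words, with 42.1% at Zfp709, 21.3% at Zfp934 and 1.37% at Zfp781, while Zfp799 had 97.3%. In 23 of the 30 (76.7%) the gene model had no annotated 5′ UTR, against 5 of 122 marked ones (4.10%). Over all genes the shares were 23.1% of unmarked and 3.01% of marked. Alternative starts were annotated for 9 of the 30, and 4 of these were marked there. For Zfp78 and Zfp934 the only other start lay 3 and 93 bases away, in nearly the same window. Zfp111 had 58 scramble reads at a start 3316 bases away, and Zfp61 had 91 at 1831 bases. Zfp607, Zfp59 and Zfp626, neighbours on chromosome 7, had 7, 10 and 8 reads with Jarid1b shRNA and 14, 15 and 11 in scramble, and in their cluster of 5 only Zfp60 was marked.

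Between the libraries, clustered Zfp promoters sat lower with Jarid1b shRNA than promoters in general did. The measure is the log2 ratio of RPM, Jarid1b shRNA over scramble, for promoters marked in either library and with at least 20 reads over both. A call needed a difference of 2-fold or more and a 95% interval free of 0. Of 121 clustered Zfp promoters compared, 3 were called higher (2.48%) and 9 lower (7.44%). Over all 13273 promoters compared, 24% were called higher and 2.37% lower. Of the 56 other Zfp promoters, 13 were higher (23.2%) and 1 was lower. The median log2 ratio was -0.20 in clustered Zfp (quartiles -0.66 and 0.14), 0.04 in other Zfp, 0.01 in the neighbouring genes and 0.41 over all promoters. A total of 34 clustered Zfp intervals lay wholly below 0 (28.1%), 14 above 0 (11.6%) and 73 held 0. Over all promoters 11.2% lay below and 43.7% above. By scramble level, medians were 0.41 (n = 5) in clustered Zfp and 1.06 (n = 1633) in all other promoters up to 5 RPM. They were -0.11 (n = 18) and 0.85 from 5 to 10 RPM, and -0.43 (n = 44) and 0.65 from 10 to 20 RPM. From 20 to 40 RPM they were -0.32 (n = 47) and 0.17, and above 40 RPM the order reversed, with 0.20 (n = 7) and -0.24. Up to 5 RPM, 48.1% of the others were called higher. The part of level in the difference was not tested.

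The split depended on how the libraries were scaled. Scaled to the median ratio of all promoters, 1 clustered Zfp promoter was higher and 36 were lower, beside backgrounds of 12% and 8.97%. Scaled to bins without H3K4me3 far from TSSs, 6 were higher and 3 lower, beside 33.1% and 0.957%. With the ratio of background bins of the same GC class removed, 1 was higher and 3 lower, beside 6.37% and 4.31%. The median of clustered Zfp stayed 0.61 (log2) below that of all promoters under both plain scalings, by construction. It was -0.61 under the first and 0.033, with the opposite sign, under the second, and with the GC trend removed the medians were -0.34 in clustered Zfp and -0.06 over all.

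The ratio followed GC content among clustered Zfp promoters as it did elsewhere. Spearman's rho between GC content and log2 ratio was 0.52 over the 121 and 0.63 over all 13273, as a description, since promoters share the same pair of libraries and neighbours share sequence. Between scramble level and log2 ratio it was -0.198 over the 121, and -0.345 with the GC trend removed. The median GC content was 46.7% in clustered Zfp, 50.6% in other Zfp and 51.2% over all. Within bands, the clustered Zfp median was -0.71 at up to 45% GC, against -0.62 for all other promoters. It was -0.48 against -0.24 from 45 to 50%, 0.03 against 0.18 from 50 to 55%, and 0.34 against 0.86 above 55%. All 3 clustered Zfp genes called higher had over 55% GC, and 6 of the 9 called lower had at most 45%. GC content and the response to the shRNA cannot be told apart in 1 library pair.

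**Figure D3:**
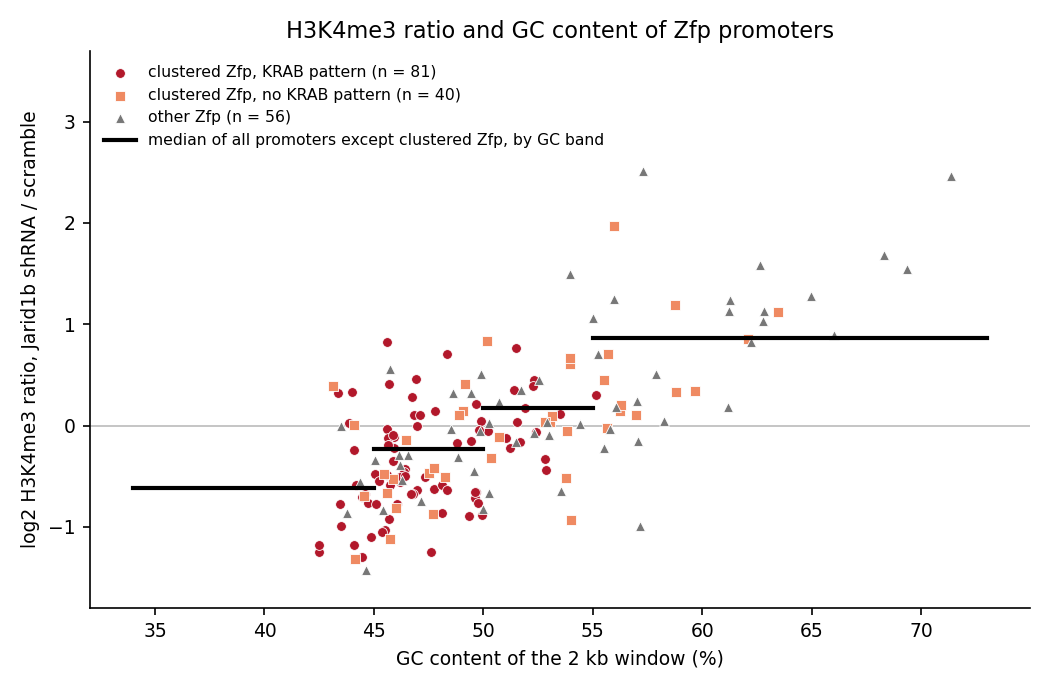
Log2 H3K4me3 ratio of Jarid1b shRNA over scramble (vertical axis) against GC content of the 2 kb window (horizontal axis, %) for clustered Zfp with and without the KRAB pattern and other Zfp promoters; black bars are medians of all promoters except clustered Zfp in 4 GC bands. Points climb with GC content in each set, and the bars climb likewise, with values of -0.62, -0.24, 0.18 and 0.86.

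Among the clustered genes, those with and without a KRAB pattern differed in their counts. With the pattern, 81 were compared, 0 were called higher and 7 lower, and the median log2 ratio was -0.43. Without it, 40 were compared, 3 were called higher and 2 lower, and the median was 0.03. Their GC contents differed too, with medians of 46.1% with the pattern and 49.1% without. With the GC trend removed the medians were -0.34 with the pattern and -0.36 without. From 45 to 50% GC the medians were -0.48 (n = 51) with the pattern and -0.47 (n = 13) without. At up to 45% GC they were -0.76 (n = 15) with it and -0.34 (n = 4) without. From 50 to 55% GC they were -0.01 (n = 14) with it and 0.03 (n = 11) without. Above 55% GC only 1 gene with the pattern was compared, against 12 without. The number of fingers had a rho of -0.15 with the ratio over the 121 genes, and protein length -0.02.

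The lowest ratios belonged to genes of several clusters. Zfp759 had 18 reads (6.83 RPM) with Jarid1b shRNA and 88 (17.1 RPM) in scramble, a log2 ratio of -1.32 (95% interval -2.14 to -0.58). Zfp418 had 20 reads (7.59 RPM) with Jarid1b shRNA and 96 (18.6 RPM) in scramble, a ratio of -1.29 (-2.07 to -0.59). Both intervals lie well below 0. The 2 genes encode proteins with 21 and 14 fingers, beside a median of 12 in clustered Zfp. Zfp960 and Zfp97, a pair 57.3 kb apart on chromosome 17, carried the highest scramble levels of all clustered Zfp genes. Zfp960 had 31.5 RPM with Jarid1b shRNA and 74.6 RPM in scramble (-1.24, -1.61 to -0.90). Zfp97 had 26.9 RPM with Jarid1b shRNA and 61.1 RPM in scramble (-1.18, -1.57 to -0.81). The remaining genes called lower were Zfp27 (-1.18), Zfp273 (-1.12), Zfp345 (-1.10), Zfp937 (-1.05) and Zfp456 (-1.03), the last with 10 reads with Jarid1b shRNA and 40 in scramble. With the GC trend removed, Zfp759 (-1.03) and Zfp418 (-1.01) were still called lower and the other 7 were not. Scaled to background bins, these and Zfp960 were still called.

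Most of the genes called lower had repeated sequence in their windows. The share of 26-base words in the window that occur at 1 place in the genome had a median of 92.9% in clustered Zfp, against 97.2% over all promoters, and 61 of 152 were under 90%. It was 40.4% for Zfp960, 0% for Zfp97, 29.9% for Zfp345 and 31.7% for Zfp937. The Zfp97 window held 71 reads with Jarid1b shRNA and 315 in scramble although no 26-base word in it was unique. Reads are 35 bases long in the Jarid1b shRNA library and 34 in scramble, and whether they match elsewhere at that length was not tested, so Zfp960 and Zfp97 are uncertain as separate genes. Of the 9 genes called lower, 8 were under 90%, and Zfp418 at 98.7% was the exception. Among the 82 clustered Zfp promoters compared with at least 90% unique words, 3 were higher, 1 was lower and the median ratio was -0.12. Among the 39 under 90%, 0 were higher, 8 were lower (20.5%) and the median was -0.48. Of all other promoters, 1.90% were lower at 90% or more and 5.26% under it, or 8.51% and 10.6% at 40 to 50% GC, where the clustered Zfp shares were 2% and 24.2%. At 40 to 50% GC the medians were -0.49 (n = 50) for the more unique and -0.63 (n = 33) for the less unique clustered Zfp, and -0.23 and -0.37 for all other promoters. The part of repeated sequence in the lower calls was not tested.

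The 3 promoters called higher were CG-rich and their genes had no KRAB pattern. Zfp771 had 93 reads (35.3 RPM) with Jarid1b shRNA and 80 (15.5 RPM) in scramble, a log2 ratio of 1.19 (0.74 to 1.64). Zfp768 had 107 (40.6 RPM) with Jarid1b shRNA and 96 (18.6 RPM) in scramble, 1.13 (0.71 to 1.54), though with the GC trend removed its ratio was -0.29. The ratio of Zfp771 was then 0.44, and under the scaling to the median of all promoters neither reached 2-fold (0.78 and 0.72). Zfp629, in the same cluster, had 26 reads with Jarid1b shRNA and 13 in scramble, 1.97 (0.96 to 3.05), and stayed higher in both settings (1.39 and 1.56). Below the 2-fold limit, with intervals above 0, came Zfp787 (0.85), Zfp784 (0.84), Zfp93 (0.82), Zfp30 (0.77), Zfp692 (0.71) and Zfp580 (0.67). Zfp93 and Zfp30 have the KRAB pattern, at 45.6% and 51.5% GC.

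Clusters differed in where their members stood. Of the 11 clusters with at least 5 genes, 8 had a negative median. The number was 11 when scaled to the median of all promoters, 5 when scaled to background bins and 10 with the GC trend removed. Among the 8, the cluster from Zfp60 to Zfp850 had only 1 of 5 genes compared. The 8 genes from Zfp553 to Zfp629 on chromosome 7 were all marked, had a median of 0.33 and held all 3 higher calls, at a median GC content of 55.6%. Their median was -0.08 when scaled to the median of all promoters and -0.14 with the GC trend removed. The 14 genes from Zfp84 to Zfp146, also on chromosome 7, had 13 marked and a median of -0.51. Within it ratios ran from -1.18 (Zfp27) to 0.77 (Zfp30), although these genes lie within 401 kb. Zfp566 had 30.4 RPM with Jarid1b shRNA and 47.7 RPM in scramble there, and Zfp14 had 0 reads with Jarid1b shRNA and 6 in scramble. Of the 12 genes from Zfp180 to Zfp575, 8 were marked and the median was -0.13.

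**Figure D4:**
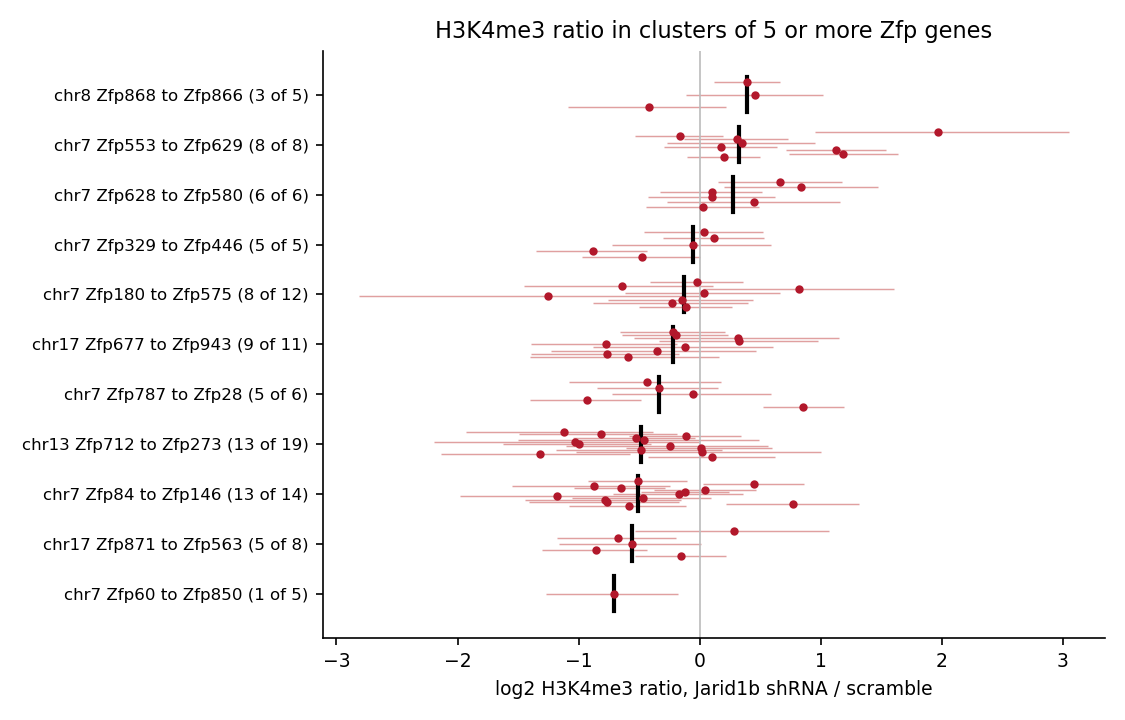
Log2 H3K4me3 ratio of Jarid1b shRNA over scramble (horizontal axis) for each promoter compared in the 11 clusters of at least 5 Zfp genes (rows, with the number compared of all); points are genes, lines are 95% counting intervals and black bars are medians. Cluster medians run from -0.71 to 0.39, and 8 of 11 lie below 0, against 5 of 11 when scaled to background bins. The lowest median is a single promoter, Zfp60, the only 1 of 5 compared, and the highest rests on 3 of 5.

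The largest cluster spanned 753 kb of chromosome 13, with 19 entries from Zfp712 to Zfp273. H3K4me3 was called at 13 of them in each library. Marked members had between 3.79 and 22.4 RPM with Jarid1b shRNA and between 5.23 and 25.2 RPM in scramble, and unmarked ones had at most 6 reads. Ratios had a median of -0.48 and ran from -1.32 (Zfp759) to 0.10 (Zfp712), with 3 lower calls (Zfp759, Zfp273 and Zfp456). Zfp58 had the highest scramble level, with 17.5 RPM with Jarid1b shRNA and 25.2 RPM in scramble (-0.53, -1.05 to -0.03). Zfp748 beside it had 22.4 RPM with Jarid1b shRNA and 24.2 RPM in scramble (-0.11, -0.59 to 0.34). Between Zfp748 and the next marked gene, Zfp493, both Zfp738 entries had 0 reads with Jarid1b shRNA and at most 3 in scramble.

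**Figure D5:**
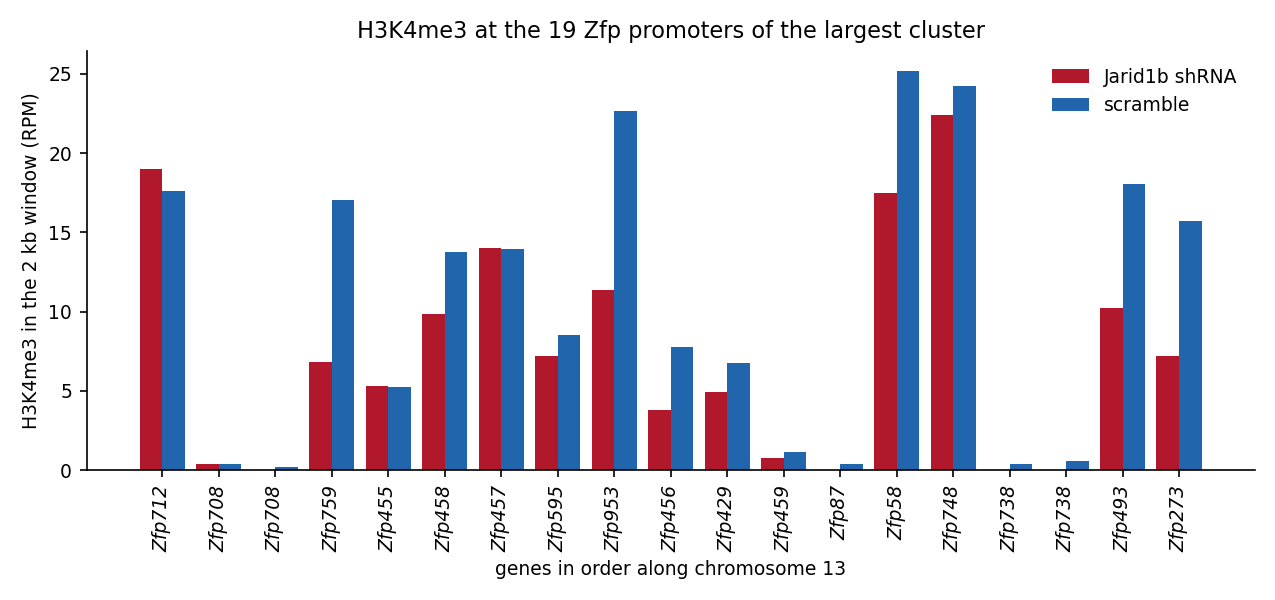
H3K4me3 in the 2 kb promoter window (vertical axis, RPM) of the 19 Zfp entries of the largest cluster in chromosome order (horizontal axis); red bars are the Jarid1b shRNA library and blue bars scramble. Zfp759 stands at 6.83 RPM with Jarid1b shRNA and 17.1 RPM in scramble, while Zfp748 stands at 22.4 RPM with Jarid1b shRNA and 24.2 RPM in scramble.

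In 4 pairs the TSSs were so close that the windows shared nearly all reads, and each such pair is a single measurement. Zfp646 and Zfp668, 32 bases apart on opposite strands, had 201 and 197 reads with Jarid1b shRNA and 311 and 307 in scramble, for ratios of 0.34 and 0.33, or -0.07 and -0.08 when scaled to the median of all promoters and -0.40 and -0.41 with the GC trend removed. Zfp942 and Zfp943, 88 bases apart, had 66 and 65 reads with Jarid1b shRNA and 148 each in scramble. Zfp944 and Zfp758, 53 bases apart, had 38 and 39 reads with Jarid1b shRNA and 115 each in scramble. Zfp882 and Zfp617 start 27 bases apart on the same strand and had 34 reads each with Jarid1b shRNA and 106 each in scramble (-0.67).

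Jarid1b enrichment was called at few clustered Zfp promoters. A promoter counted as enriched when it passed the Poisson test in both Jarid1b libraries. Of the 152, 6 did (3.95%), against 7.96% of all promoters and 8 of 70 other Zfp promoters (11.4%). At 45 to 50% GC, 4 of 68 clustered Zfp promoters were enriched (5.88%), against 48 of 4764 others (1.01%). Other Zfp promoters, counted among those others, had 1 of 19 enriched (5.26%). In the deeper library 29.4% of clustered Zfp, 11.6% of the others and 21.1% of other Zfp passed in this band. At up to 45% GC, 0 of 43 clustered Zfp promoters were enriched, against 0.359% of the others. Shares were 3.57% against 5.14% from 50 to 55% GC and 7.69% against 21.4% above 55%. Relative to background bins of like GC content the median signal in the deeper and the other library was 1.41 and 1.18 times in clustered Zfp, and 1.15 in each over all promoters. The 6 were Zfp790, Zfp787, Zfp607, Zfp58, Zfp947 and Zfp2. Zfp58 had 15 and 6 reads in the 2 libraries, or 4.42 (2.48 to 7.30) and 4.79 (1.76 to 10.4) times the genome rate. Zfp787 had 13 and 7 reads, or 3.83 and 5.59 times, and Zfp790 the same. Zfp607 had 11 and 7 reads but no H3K4me3 call, and only 29.4% of its words were unique. Zfp947 was also under 90%, and 4 of the 6 had at least 90% unique words. With the background taken from bins of like GC content, 0 of the 152 were enriched, beside 0.331% of all promoters, and 34 passed when the deeper library was read alone and 9 when the other was.

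The mean Jarid1b signal was highest at Zfp668 and Zfp646, each with 15 and 10 reads, or 4.42 (2.48 to 7.30) and 7.98 (3.83 to 14.7) times the genome rate. Neither passed against its local rate, with adjusted p of 0.097 and 0.052 for Zfp668 by the Poisson test. Zfp960 had 19 and 6 reads and Zfp768 had 20 and 5, and both passed in the deeper library only. In marked clustered Zfp promoters the median signal was 2.36 times the genome rate in the deeper library and 2.40 in the other, against 2.95 and 3.19 in all marked promoters. At the 3′ ends of the 130 clustered Zfp genes whose ends lay over 5 kb from their own TSS, 0 were enriched in either Jarid1b library, and 3 carried H3K4me3 with Jarid1b shRNA (2.31%) and 4 in scramble (3.08%). Over all 16524 such genes the shares were 0.436% and 0.133% in the Jarid1b libraries, 3.56% for H3K4me3 with Jarid1b shRNA and 3.90% in scramble.

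Several Zfp genes have known roles. Zfp568, a clustered KRAB gene that represses a placental Igf2 transcript in mouse, had 36.4 RPM with Jarid1b shRNA and 39.5 RPM in scramble, and its interval held 0 (-0.12, -0.48 to 0.24). Zfp819, a clustered KRAB gene tied to repression of retroelements, had 37 reads with Jarid1b shRNA and 103 in scramble (-0.51, -1.09 to 0.05). Outside the clusters, Zfp57, which maintains imprints, was unmarked, with 1 read with Jarid1b shRNA and 9 in scramble. Zfp42 (Rex1), a marker of ES cells, had 8.35 RPM with Jarid1b shRNA and 22.5 RPM in scramble (-1.43, -2.16 to -0.76). Zfp423, with roles in neural and fat cell development, had 64.1 RPM with Jarid1b shRNA and 11.6 RPM in scramble (2.46, 2.03 to 2.91). Of the other Zfp genes, Zfp592 (1.69), Zfp318 (1.59) and Zfp161 (1.55) followed it, and Zfp703, a regulator of breast luminal cells, had 1.28. With the GC trend removed Zfp423 stayed at 1.05, and these were 0.27, 0.17, 0.14 and -0.13. Zfp36 (-0.99), which encodes tristetraprolin and has no C2H2 finger, Zfp945 (-0.86) and Zfp207 (-0.83) had the lowest ratios after Zfp42. With the GC trend removed Zfp42 (-1.14) was still called lower and Zfp36 (-1.57) was called lower too. Zfp945 (-0.58) and Zfp207 (-0.69) were not called in that setting. Zfp143 (0.01), Zfp64 (-0.03), Zfp296 (0.18) and Zfp335 (0.19) had intervals holding 0, and Zfp217 had 2 reads with Jarid1b shRNA and 3 in scramble.

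Genes listed for the repression route of KRAB proteins were nearly all marked. The list held 27 genes and gave 28 gene entries, of which 27 were marked in each library (96.4%). Of all promoters, 59.9% were marked with Jarid1b shRNA and 60% in scramble, and of other promoters above 55% GC 92.7% in scramble. Of 27 compared 4 were called higher and 0 lower, beside 24% and 2.37% of all promoters. Their median log2 ratio was 0.34 and their median GC content 55.4%. With the GC trend removed the median was -0.43. In that setting 1 of the 27 was called higher (Chd3) and 3 lower (Sumo2, Cbx3 and Suv39h1), beside 6.37% and 4.31% of all promoters. Trim28, the corepressor itself, had 160 reads (60.7 RPM) with Jarid1b shRNA and 188 (36.4 RPM) in scramble (0.74, 0.42 to 1.05), and its ratio was -0.68 with the GC trend removed. Setdb1 had 43 reads with Jarid1b shRNA and 100 in scramble (-0.25, -0.80 to 0.28). The 4 called higher were Chd3 (2.95) and Chd4 (1.24), remodellers of the NuRD complex, Ehmt2, an H3K9 methyltransferase with 179 reads with Jarid1b shRNA and 124 in scramble, and Nrip1 (1.23), a corepressor. Chd3 had 63 reads with Jarid1b shRNA and 16 in scramble. Jarid1b enrichment was called at 4 of the 28 entries (14.3%, beside 7.96% of all promoters), Sumo2, Daxx, Suv39h2 and Hdac2, and at 0 with a background of like GC content.

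The printed promoters differ in their CG, and so did the sets. CG dinucleotides were counted in the 300 bases from 250 before to 50 after the TSS. Their median number was 12 in marked and 2.5 in unmarked clustered Zfp promoters, and 20 in all other marked promoters. Over marked and unmarked together it was 10 in clustered Zfp, 15.5 in other Zfp and 11 in all promoters except clustered Zfp. Short words were searched in the same 300 bases on both strands. GGGCGG, the SP family word, was in 41 of 122 marked clustered Zfp promoters (33.6%), against 65.3% of other marked promoters. CCGGAAG, an ETS family word, was in 28 (23.0%), against 16.4%, and CCAAT in 57 (46.7%), against 37.8%. TATAAA was in 8 (6.56%) against 6.76%, and AAGATGGCG, a YY1 word, in 4 (3.28%) against 2.82%. A match describes letters in the window and no binding.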

How the data were processed

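H3K4me3 and Jarid1b ChIP-seq reads of mouse ES cells were analysed in 4 libraries. The deposited BED rows hold 1 aligned read each, with a score of 0. Tags were aligned to mm9 with Bowtie, per the submitters' processing notes; its version and its setting for reads with several matches are not given in the sources used here. Later steps, per the labels' protocols, were the removal of repeated positions, MACS peaks and IgG normalization, but the deposited rows precede these steps, since 7.56% to 31.5% of them repeated a position and strand.

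Repeats were counted 1 time, 5′ ends were shifted by 75 bases and counted within 1 kb of each gene-level TSS (the outermost 5′ end of the gene). RPM is per 1000000 reads kept. The Poisson test took the higher of the genome rate and the rate in the flanks to 10 kb each side. Ratios carry 95% Clopper-Pearson intervals for the split of reads between the libraries. The GC trend came from 1 kb bins over 5 kb from a TSS in 14 GC classes. The KRAB and finger patterns were searched in translated GENCODE coding sequences, and the KRAB pattern was loosened after its first matches were seen; 261 of the 284 genes in all that matched it (91.9%) also had a finger. Symbols Zfp708 and Zfp738 have 2 entries each and are counted as such, and the 2 Zfp319 entries, which neighbour only each other, were counted as not clustered. The work was done in Python 3.11.15 with numpy 2.4.6, scipy 1.17.1 and pandas 2.3.3, and tested on simulated reads.

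Members and lists were chosen with earlier results of these data known. Genes were named by rule. It took the 8 highest and lowest ratios, given 50 or more reads and an interval free of 0, and the 5 highest Jarid1b signals. Also taken were the 4 highest and lowest scramble levels and the extremes of the other Zfp genes and of the largest cluster. Shared promoters, genes of known role and the genes listed for the KRAB route completed it. Zfp629, Zfp456, the enriched genes outside that rule, the members of the clusters described and those with alternative starts were named after their values were seen.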

Additional observations from a re-analysis of the deposited data

How the results depend on the processing

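No paired analysis was possible because each shRNA has 1 H3K4me3 library and the numbers of the Jarid1b libraries pair them with nothing. Of the clustered Zfp promoters, 3 were called higher with Jarid1b shRNA, which became 1 when scaled to the median ratio of all promoters, 1 with the GC trend removed, 6 when scaled to background bins and 6 with repeated rows included. The 9 called lower became 36 under the median scaling, all 9 among them, 3 under the background scaling, 3 with the GC trend removed, of which 2 were among the 9, and 1 among promoters with at least 90% unique 26-base words. The median log2 ratio of -0.20 became -0.61 under the median scaling and 0.033, with the opposite sign, under the background scaling. The difference in median between clustered and other Zfp of -0.24 became -0.46 with a window of 500 bases each side, -0.40 with clusters defined at 500 kb and -0.10 with the GC trend removed, and kept its sign in every setting run for it. The 6 promoters with Jarid1b enrichment became 0 at an adjusted p of 0.001 and 0 with a background by GC content, and numbered 9 to 34 when either Jarid1b library was used alone. With the GC trend removed, Zfp768 and Zfp703, both called higher, changed sign to -0.29 and -0.13, and so did the uncalled Zfp668 (-0.41), Zfp646 (-0.40), Zfp296 (-0.40), Zfp143 (-0.37) and Zfp335 (-0.65). The counts of marked promoters kept within 1.5 times of 122 and 120 in every setting run. A setting added after the data were seen kept only gene models with an annotated 5′ UTR and left the counts and medians over the set on their side; single genes were not run under it. Beyond the values given, the cause was not tested. Depth is a limit on the Jarid1b calls, with a genome rate of 3.39 and 1.25 reads per window in the 2 libraries.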
